A study of Mus musculus with 35 samples.

Results

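The 10 serotonin receptor genes described here were Htr2a, Htr2c, Htr1a, Htr1b, Htr1d, Htr1f, Htr4, Htr5b, Htr6 and Htr7, taken by symbol from a table of 39017 mouse genes counted in RNA from the striatum. The family was chosen by the measured rise of Htr2a with the HttQ111 allele. The comparison in Hdac2 WT mice is thus given as a description with no test for any member. The 4 other serotonin receptor genes listed (Htr2b, Htr3a, Htr3b and Htr5a) serve only for comparison. Each of the 35 libraries came from 1 mouse, 21.71 to 23 weeks old, on a mainly C57BL/6 background. There were 4 groups. Without Hdac2 deletion these were 8 Htt+/+ and 7 HttQ111/+ mice (called Hdac2 WT), and with it 9 Htt+/+ and 11 HttQ111/+ mice (called Hdac2 KO). The Htt+/+ groups held 5 males and 3 females (Hdac2 WT) and 5 males and 4 females (Hdac2 KO). The HttQ111/+ groups held 4 males and 3 females (Hdac2 WT) and 8 males and 3 females (Hdac2 KO). HttQ111 is a knock-in allele of the Huntington's disease gene that carries a long CAG repeat, of 110 to 144 repeats in these mice. Hdac2 encodes a histone deacetylase, an enzyme that removes acetyl groups from chromatin proteins. In the KO mice both Hdac2 alleles were floxed and Cre came from D9-Cre, a transgene with regulatory sequence of Ppp1r1b (DARPP-32) that becomes active some weeks after birth in the projection neurons of the striatum, the medium-spiny neurons (MSNs). None of the Hdac2 WT mice carried Cre, so Cre itself and the deletion cannot be told apart. The study's sample table records the Hdac2 WT mice as homozygous for the floxed allele, except for 2 Htt+/+ mice (replicates 1 and 2) with 1 floxed allele.

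Serotonin reaches the striatum in axons of neurons whose cell bodies lie in the brainstem, and acts there on receptors that, except for the Htr3 ion channels, are coupled to G proteins. The Htr1 receptors act through Gi/o proteins and lower cyclic AMP, the Htr2 receptors act through Gq/11 proteins and phospholipase C, and Htr4, Htr6 and Htr7 act through Gs proteins and raise cyclic AMP. In the striatum Htr1b is known from the axon terminals of MSNs, Htr2c and Htr6 from MSNs themselves, Htr2a is best known from cortical projection neurons, and Htr2c is also very abundant in the choroid plexus, the tissue that secretes cerebrospinal fluid.

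Total counts ran from 50970712 to 77867348 per library. Hdac2 itself averaged 102.5 ± 3.4 CPM (counts scaled by TMM to a common library total, with SD) without and 94.4 ± 3.0 with the deletion in Htt+/+ mice, and 104.6 ± 4.8 and 95.2 ± 3.5 in HttQ111/+ mice. Its fitted log2 difference was -0.09 ± 0.03 (SE) in Htt+/+ mice (edgeR adjusted p = 0.0552) and -0.12 ± 0.03 in HttQ111/+ mice (edgeR adjusted p = 0.00198), in whole striatum that also holds cells without Cre. The floxed allele loses only some of the exons, and these counts cover the whole gene, so they do not measure the deletion. The study reports marked depletion of reads over those exons and no detectable HDAC2 protein in most striatal cells. MSN markers were abundant in all libraries, with a summed level of 4745 to 7589 CPM for 7 genes. Markers of neighbouring tissue varied widely. The summed level of 10 cortical projection neuron markers ran from 32.4 to 517.9 CPM, with the highest values in HttQ111/+ Hdac2 WT replicate 7 (517.9) and Htt+/+ Hdac2 KO replicate 6 (220.5), and that of 10 choroid plexus markers from 18.5 to 220.1 CPM. Markers of serotonergic neurons differed in level. Slc6a4, the serotonin transporter, had 0 counts in 14 libraries and at most 6, and Fev, a transcription factor of serotonergic neurons, had 0 counts in 30 libraries and at most 4. Tph2, the enzyme that makes serotonin in neurons, was detected in every library, with 31 to 138 counts. Extraction of RNA took 6 days, of which only 2 held mice of both Hdac2 genotypes, with a single KO mouse on each. The mice carry IDs of 3 series (A, V and Z), and all HttQ111/+ mice with 131 or more repeats belong to series V.

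In the text below, fitted differences come from edgeR's quasi-likelihood fit with surrogate variables, in the form used in the study, and are on the log2 scale. An adjusted p is the Benjamini-Hochberg value over all genes tested, and a gene is called when it is under 0.05. Contrast 1 is Hdac2 KO minus Hdac2 WT in Htt+/+ mice, contrast 2 is the same in HttQ111/+ mice, contrast 3 is HttQ111/+ minus Htt+/+ in Hdac2 WT mice, contrast 4 is the same in Hdac2 KO mice, and contrast 5 is HttQ111/+ Hdac2 KO minus Htt+/+ Hdac2 WT. In whole tissue, fewer cells of a type and less RNA per cell cannot be told apart.

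The level of a gene is first compared with that of another gene as CPM per kb of exon (merged exons of GENCODE M21). In Htt+/+ Hdac2 WT mice Htr1b stood highest at 26.5 ± 4.5 CPM per kb (SD, n = 8), followed by Htr2c at 8.70 ± 1.2, and the ranges of these genes overlapped neither each other nor the next gene. Htr6 followed at 2.46 ± 0.43, Htr2a at 1.84 ± 0.59, Htr4 at 1.15 ± 0.27, Htr1f at 0.801 ± 0.18 and Htr7 at 0.774 ± 0.22, each overlapping its neighbour in this order. Htr1d at 0.463 ± 0.095 and Htr1a at 0.462 ± 0.12 could not be separated, and Htr5b was last at 0.108 ± 0.12, where the lowest and highest libraries held 2 and 42 counts. Over all 35 libraries Htr1b made up 55.2% of the summed CPM per kb of the family, Htr2c 21.7%, Htr6 6.72% and Htr2a 6.12%. Htr1b and Htr2c kept ranks 1 and 2 in all 4 groups, while mean Htr2a stood above Htr6 in both HttQ111/+ groups and below it in both Htt+/+ groups. The ranges of Htr2a and Htr6 overlapped in all 4 groups, and their order rests in part on the Htr2a rise by which the family was chosen. Reads were counted over the whole gene span, introns included. Per kb of that span Htr1b was still first, at 22.6, but Htr1a and Htr6, with 0.467 and 0.399, stood above Htr2c with 0.346 in its span of 234.8 kb.

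**Figure D1:**
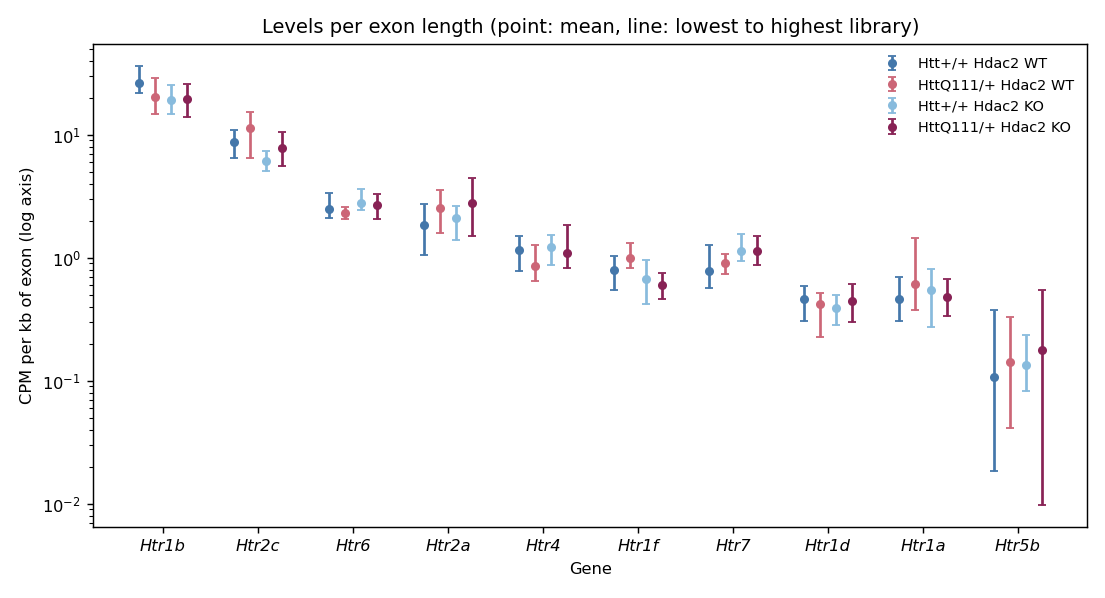
Mean level of each of the 10 receptor genes in each genotype group, as CPM per kb of exon on a log axis, with lines from the lowest to the highest library. Htr1b and Htr2c sit above the other 8 genes in every group, and Htr5b has the lowest mean in every group.

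The starts of 4 of these genes are shown because Htr2a set the choice of the family and Htr2c, Htr1b and Htr1f were the members called lower with Hdac2 KO in contrast 1 or 2. Each window holds 250 bases before and 50 after the annotated start, read 5′ to 3′ on the gene's strand (RefSeq, GRCm38.p6), with CpG dinucleotides in capitals. Windows were found for 8 of the 10 genes.
Htr2a, chr14:74640624-74640923, plus strand: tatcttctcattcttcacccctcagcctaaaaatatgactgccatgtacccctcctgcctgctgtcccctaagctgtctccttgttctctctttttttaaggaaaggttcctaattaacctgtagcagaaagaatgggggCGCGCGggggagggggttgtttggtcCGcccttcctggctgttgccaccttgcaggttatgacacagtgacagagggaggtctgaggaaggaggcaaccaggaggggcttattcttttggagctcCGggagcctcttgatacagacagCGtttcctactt
Htr2c, chrX:146962263-146962562, plus strand: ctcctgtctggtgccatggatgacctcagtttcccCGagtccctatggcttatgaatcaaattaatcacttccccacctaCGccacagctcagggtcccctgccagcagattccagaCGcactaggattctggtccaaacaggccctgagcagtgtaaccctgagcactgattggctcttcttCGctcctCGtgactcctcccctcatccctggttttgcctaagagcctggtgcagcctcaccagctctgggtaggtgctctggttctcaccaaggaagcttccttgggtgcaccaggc
Htr1b, chr9:81633783-81634082, minus strand: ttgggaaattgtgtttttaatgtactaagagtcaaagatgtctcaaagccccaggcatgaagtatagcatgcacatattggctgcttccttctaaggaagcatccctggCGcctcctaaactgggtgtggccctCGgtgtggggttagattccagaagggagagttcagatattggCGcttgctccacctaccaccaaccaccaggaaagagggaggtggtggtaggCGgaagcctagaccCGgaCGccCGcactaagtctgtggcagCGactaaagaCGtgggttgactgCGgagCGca
Htr1f, chr16:65105735-65106034, minus strand: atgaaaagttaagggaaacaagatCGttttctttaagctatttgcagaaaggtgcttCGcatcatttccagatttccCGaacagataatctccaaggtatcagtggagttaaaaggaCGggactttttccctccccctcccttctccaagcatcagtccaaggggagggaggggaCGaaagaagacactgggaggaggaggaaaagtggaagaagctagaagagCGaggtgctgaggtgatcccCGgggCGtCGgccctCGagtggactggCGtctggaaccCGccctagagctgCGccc
The Htr2a and Htr2c windows hold 6 and 5 CpG sites, under the median of 7 over 32851 RefSeq windows of the same length, and the Htr1b and Htr1f windows hold 11 and 13. The Gs-coupled Htr7 has the most in the family, 46, more than 98.4% of all windows. The letters GGGCGG (a GC box), searched on both strands, occur in the Htr2a and Htr1f windows and not in those of Htr2c or Htr1b, and in 35.7% of all windows. TATAAA occurs in none of the 4 and in 13.6% of all windows, and TGACG in none of the 4 and in 20.8% of all.

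Htr2a, the receptor through which the classical hallucinogens act, lies at chr14:74640840-74706859 (GRCm38) and overlaps no other gene of the table. In Htt+/+ Hdac2 WT mice its level ran from 5.93 to 15.3 CPM with a median of 9.86, and in HttQ111/+ Hdac2 WT mice from 8.88 to 19.7 with a median of 14.2. In Htt+/+ Hdac2 KO mice it ran from 7.84 to 14.8 (median 11.8), while in HttQ111/+ Hdac2 KO mice from 8.48 to 25.0 with a median of 14.5. The HttQ111/+ mice were thus higher on average on both Hdac2 backgrounds, and the groups overlapped on both: 3 of the 7 HttQ111/+ Hdac2 WT libraries lay above all 8 Htt+/+ Hdac2 WT libraries, and 5 of the 11 HttQ111/+ Hdac2 KO libraries above all 9 Htt+/+ Hdac2 KO libraries. Between means the ratio was 1.39 in contrast 3, a comparison used in choosing the gene, and the fitted log2 difference was 0.52 ± 0.12 (SE). Among all genes, 69 of 17133 (0.403%) were called in that contrast.

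Contrast 4 makes the same comparison in Hdac2 KO mice. The gene was chosen by its rise with HttQ111, and the Hdac2 KO libraries may have had a part in that choice. The p-values of contrast 4 therefore cannot be read as an independent test of the rise. The edgeR fit also took its surrogate variables and its estimate of spread from all 35 libraries. In contrast 4 Htr2a was at 15.5 ± 5.0 CPM (SD, n = 11) against 11.9 ± 2.3 (n = 9), a ratio of 1.30. The fitted difference was 0.23 ± 0.10 (SE), with a 95% interval from 0.04 to 0.42, an unadjusted p of 0.025 and an adjusted p of 0.576 by edgeR, so it was not called. Only 1 of 17110 genes (0.00584%) was called in contrast 4, a number that ran from 0 to 30 with 1 library left out (30 without HttQ111/+ Hdac2 KO replicate 11). An exact two-sided permutation test on log2 CPM of the 11 and 9 libraries alone, without a model, gave a difference of 0.34 and p = 0.0785. The difference between the effect of HttQ111 in KO mice and in WT mice was -0.31 ± 0.15 for Htr2a, given without a test since it shares the choosing libraries.

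Within ID series, mean Htr2a in HttQ111/+ Hdac2 KO against Htt+/+ Hdac2 KO was 18.7 (n = 3) against 13.5 (n = 1) CPM in series A, 16.7 (n = 5) against 12.9 (n = 3) in series V, and 10.2 (n = 3) against 10.9 (n = 5) in series Z. The higher mean was thus seen in series A and V and not in series Z. In Hdac2 WT mice HttQ111/+ was higher in each series, with 13.1 (n = 2) against 11.04 (n = 2) in A, 16.5 (n = 3) against 10.6 (n = 5) in V and 12.4 (n = 2) against 7.44 (n = 1) in Z. Within extraction days of contrast 4, the means were 17.7 (n = 3) against 12.9 (n = 3) on 26 May, 9.19 (n = 2) against 10.2 (n = 4) on 31 May and 16.01 (n = 5) against 13.5 (n = 1) on 3 June.

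With Hdac2 KO the fitted differences of Htr2a were 0.60 ± 0.13 in contrast 1 and 0.31 ± 0.12 in contrast 2, and 0.85 ± 0.13 in contrast 5. These are descriptions, and they rest on the surrogate variables: without them the contrast 1 and contrast 2 values were 0.20 and 0.11, and the means differed only from 10.3 to 11.9 and from 14.3 to 15.5 CPM. Htr2a did not follow the summed cortical markers. That sum is weighted to the abundant ones: in its lowest library, HttQ111/+ Hdac2 WT replicate 6, Rorb alone gave 22.4 of 32.4 CPM. With group means removed, Pearson's r between its log2 CPM and the log2 summed level of the 10 cortical projection neuron markers was -0.01 over 35 libraries (permutation p = 0.93, and 0.93 adjusted over 2 relations), and Spearman's rho was 0.01 (permutation p = 0.968). Without the 2 libraries farthest from the median marker level r was 0.06. With 1 entry counted per gene, none of the 9 cortical markers tested was called in contrasts 1 to 4. Their fitted differences were wide, with medians of -0.56 in contrast 1, 0.16 in contrast 2, -0.44 in contrast 3 and 0.07 in contrast 4. Another, more abundant entry of Cux2 was left out of these counts and of the summed level. It was called higher in contrast 1, at 0.44 ± 0.12 (edgeR adjusted p = 0.00731). Over 17 alternatives, which include one without both cortex-rich libraries, the fitted contrast 4 value of Htr2a ran from 0.20 to 0.39 and was never called.

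**Figure D2:**
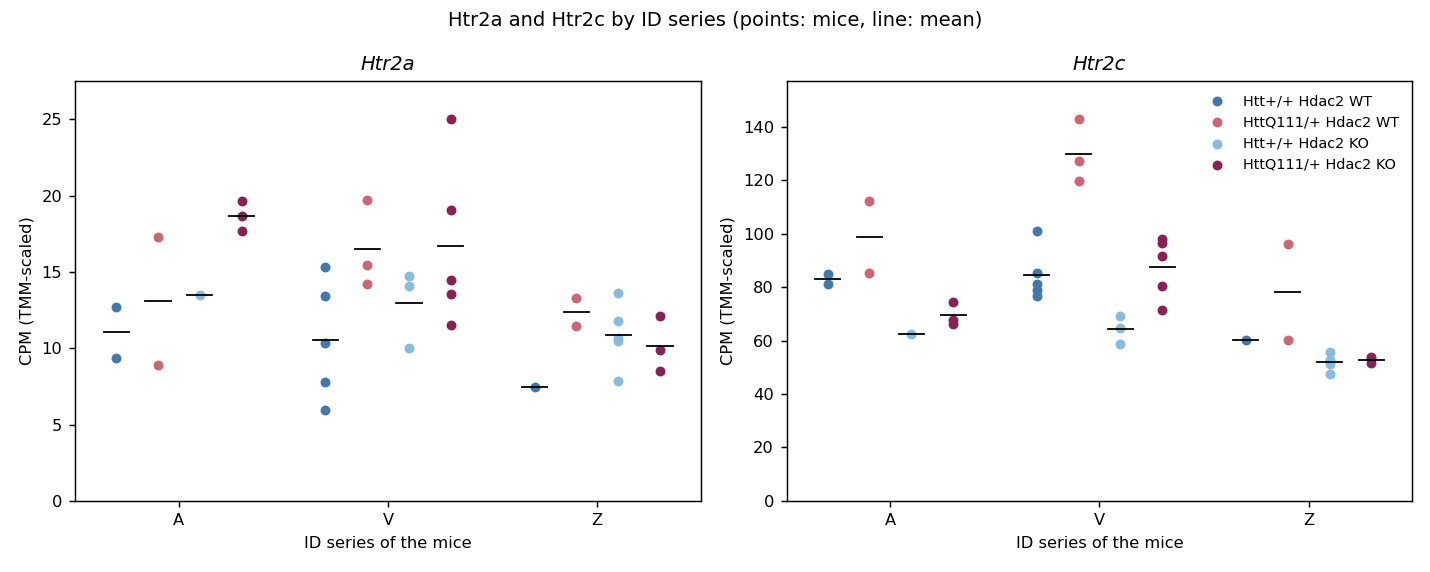
CPM of Htr2a (left) and Htr2c (right) in each mouse, by ID series on the x axis and by genotype group in colour, with a line at each mean. For Htr2c the V series holds the highest HttQ111/+ Hdac2 WT values, from 119.8 to 142.9 CPM, and in the Z series the means of both KO groups, 51.9 and 52.8 CPM, nearly coincide.

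Htr2c, the other Gq/11-coupled member, was lower in Hdac2 KO mice on both Htt backgrounds. It lies at chrX:146962513-147197277. In Htt+/+ mice it ran from 60.1 to 101.2 CPM with a median of 81.2 without the deletion, and from 47.6 to 69.2 with a median of 55.7 with it. In HttQ111/+ mice it ran from 60.4 to 142.9 with a median of 112.2 in Hdac2 WT and from 51.7 to 98.0 with a median of 71.6 in Hdac2 KO. The ranges overlapped in both comparisons, and 6 of 9 Htt+/+ Hdac2 KO libraries lay below all 8 Htt+/+ Hdac2 WT libraries. Htr2c fell by 0.31 ± 0.07 (SE) in contrast 1 (edgeR adjusted p = 0.000962) and by 0.43 ± 0.06 in contrast 2 (edgeR adjusted p = 3.67e-06). It fell by 0.18 ± 0.06 in contrast 5 (edgeR adjusted p = 0.0413), a call that 11 of 17 alternatives did not give. Both KO calls held with each of the 17 or 18 libraries of the contrast left out in turn. Of 17 alternatives, 2 ended the contrast 1 call of Htr2c and 1 its contrast 2 call. The extraction day as a term in place of the surrogate variables ended the calls in contrasts 1 and 2 (adjusted p = 0.102 and 0.0963), where the fitted differences were in the same direction.

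With HttQ111, the mean of Htr2c was 1.31 times higher in Hdac2 WT mice (contrast 3, fitted 0.25 ± 0.06, a description) and 1.28 times higher in Hdac2 KO mice, where the fitted 0.12 ± 0.05 was not called (edgeR adjusted p = 0.576). Without surrogate variables the contrast 4 value of Htr2c was 0.36 and was not called either (edgeR adjusted p = 0.539). In Hdac2 WT mice Htr2c was at 129.9 (n = 3) against 84.6 (n = 5) CPM in series V, 98.8 (n = 2) against 83.1 (n = 2) in A and 78.3 (n = 2) against 60.1 (n = 1) in Z. In Hdac2 KO mice the V means were 87.6 (n = 5) and 64.2 (n = 3), the A means were 69.4 (n = 3) and 62.6 (n = 1), and the Z means were 52.8 (n = 3) and 51.9 (n = 5). The V mice with HttQ111 also carry the longest repeats, so series and repeat length cannot be told apart.

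Since Htr2c is abundant in the choroid plexus, its level was set beside the summed level of the 10 choroid plexus markers. That sum is weighted to the abundant ones. In its lowest library, Htt+/+ Hdac2 WT replicate 9, Clic6 gave 15.8 of 18.5 CPM and Ttr 0.23. Over 35 libraries with group means removed, Pearson's r of log2 values was 0.37 (permutation p = 0.0268, 0.0536 adjusted over 2 relations) and Spearman's rho was 0.38 (permutation p = 0.0249, 0.0498 adjusted). Without the 2 libraries farthest from the median r was 0.44, with ID series means removed as well r was 0.37, and with extraction-day means removed as well r was 0.41. The summed marker level had medians of 43.3 and 34.6 CPM in the Htt+/+ Hdac2 WT and KO groups and 45.0 and 37.1 in the HttQ111/+ groups, and its highest libraries were at 220.1, 47.1, 107.2 and 154.6 CPM. Ttr, the most specific of these markers, was called lower in contrast 1 and Clic6 higher. In contrast 2 Clic6 was the only one called, and it was higher. Leaving out the 3 libraries richest in these markers kept both KO calls of Htr2c. The part of choroid plexus RNA in these differences was otherwise not tested.

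The Gi/o-coupled group held the highest and some of the lowest levels. Htr1b lies at chr9:81628291-81633828. It ran from 103.3 to 171.1 CPM with a median of 122.6 in Htt+/+ Hdac2 WT mice, from 69.7 to 137.6 with a median of 87.8 in HttQ111/+ Hdac2 WT, from 69.6 to 120.5 in Htt+/+ Hdac2 KO mice, where the median was 85.7, and from 65.4 to 122.4 in HttQ111/+ Hdac2 KO mice, where it was 90.2. The double wild-type group was thus the high one and the other groups lay at similar levels, with overlap throughout. The Htt+/+ Hdac2 KO libraries lay below all Htt+/+ Hdac2 WT libraries in 7 of 9 cases, and the HttQ111/+ Hdac2 KO libraries in 8 of 11. Htr1b fell by 0.18 ± 0.06 (SE) in contrast 1 (edgeR adjusted p = 0.0305) and by 0.25 ± 0.05 in contrast 5 (edgeR adjusted p = 0.00102). The fitted values are smaller than the ratios of means, 0.720 and 0.737: without surrogate variables the contrast 1 value of Htr1b was -0.48 (edgeR adjusted p = 0.00573). The contrast 1 call was lost on leaving out any 1 of 6 of the 17 libraries (Htt+/+ Hdac2 WT replicate 2, 6 or 8, or Htt+/+ Hdac2 KO replicate 1, 7 or 8), with adjusted p up to 0.122. It was also lost in 4 of 17 alternatives, with adjusted p up to 0.578 (extraction day as a term), among them males only (0.178) and leaving out the 2 libraries richest in cortical markers (0.128). In contrast 2 Htr1b was at -0.12 ± 0.05 (edgeR adjusted p = 0.136), and 3 of 17 alternatives called it lower there, by at most 0.19 on the log2 scale with an adjusted p of 0.021 at the lowest. In contrast 4 it was at -0.07 ± 0.04 (edgeR adjusted p = 0.755). In contrast 3, given as a description, Htr1b was at -0.14 ± 0.05. An uncharacterised gene on the opposite strand, D430036J16Rik, overlaps Htr1b and had counts equal to 8.0% to 20.3% of those of Htr1b. The use of strand in counting is not given in the sources used here, so reads of the overlap cannot be assigned with certainty.

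Htr1f, a receptor targeted by some migraine drugs, showed the clearest separation in the family. In HttQ111/+ mice it ran from 2.12 to 3.37 CPM with a median of 2.57 in Hdac2 WT and from 1.20 to 1.94 with a median of 1.55 in Hdac2 KO. All 11 HttQ111/+ Hdac2 KO libraries lay below all 7 HttQ111/+ Hdac2 WT libraries, which held for 103 of the 17169 genes tested in contrast 2 (0.6%). In Htt+/+ mice it ran from 1.41 to 2.67 with a median of 2.22 in Hdac2 WT and from 1.09 to 2.48 with a median of 1.67 in Hdac2 KO, with wide overlap. Htr1f fell by 0.61 ± 0.13 (SE) in contrast 2 (edgeR adjusted p = 0.00119) and by 0.48 ± 0.14 in contrast 5 (edgeR adjusted p = 0.0128), and in contrast 1 it was at -0.31 ± 0.15 (edgeR adjusted p = 0.167). The contrast 2 call held with each of 18 libraries left out and in 16 of 17 alternatives, and was lost with extraction day as a term (adjusted p = 0.0957). The difference between contrasts 2 and 1, which is the interaction, was -0.30 ± 0.18 for Htr1f (edgeR adjusted p = 0.884), so a larger effect in HttQ111/+ mice was not shown. Within series, mean Htr1f in HttQ111/+ Hdac2 KO against HttQ111/+ Hdac2 WT was 1.67 against 2.36 CPM in A, 1.49 against 2.45 in V and 1.52 against 2.97 in Z. The counts behind these levels were 53 to 173 per library.

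Htr1a, the receptor that inhibits serotonergic neurons on their own cell bodies, ran from 1.22 to 3.64 CPM in all libraries but HttQ111/+ Hdac2 WT replicate 7, where it was at 6.47, and that library also held the highest cortical marker level. It was at -0.31 ± 0.18 in contrast 1 (edgeR adjusted p = 0.268) and -0.31 ± 0.16 in contrast 2 (edgeR adjusted p = 0.214). Htr1d, an autoreceptor of axon terminals, ran from 0.719 to 1.94 CPM, and its fitted differences were -0.11 ± 0.16 and -0.08 ± 0.14 in contrasts 1 and 2 and 0.04 ± 0.12 in contrast 4, none called by edgeR (adjusted p = 0.709, 0.783 and 0.974).

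Of the Gs-coupled members, Htr4 ran from 3.79 to 7.36 CPM with a median of 5.74 in Htt+/+ Hdac2 WT and from 3.16 to 6.16 with a median of 4.10 in HttQ111/+ Hdac2 WT. With the deletion it ran from 4.28 to 7.49 with a median of 5.57 in Htt+/+ and from 4.06 to 9.11 with a median of 5.11 in HttQ111/+ mice. HttQ111/+ Hdac2 WT was thus the low group, and all groups overlapped. Htr4 rose by 0.32 ± 0.11 (SE) in contrast 2 (edgeR adjusted p = 0.0375) and was at 0.18 ± 0.12 in contrast 1 (edgeR adjusted p = 0.367). The contrast 2 call was absent from 9 of 17 alternatives, and was lost on leaving out any 1 of 6 of the 18 libraries (HttQ111/+ Hdac2 WT replicate 1, 3 or 5, or HttQ111/+ Hdac2 KO replicate 1, 7 or 8), with adjusted p up to 0.133. With HttQ111 its fitted difference was -0.45 ± 0.11 in contrast 3, as a description, and -0.32 ± 0.09 in contrast 4, where the unadjusted p of 0.00129 gave an edgeR adjusted p of 0.221.

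Htr7 levels were higher with Hdac2 KO, but the fit did not call the difference. It ran from 1.93 to 4.29 CPM with a median of 2.54 in Htt+/+ Hdac2 WT mice, whereas the Htt+/+ Hdac2 KO mice ran from 3.17 to 5.25 with a median of 3.76. The HttQ111/+ groups ran from 2.50 to 3.67 (median 3.07) and 2.98 to 5.07 (median 3.79). Only Htt+/+ Hdac2 WT replicate 2, at 4.29 CPM, lay within the range of the Htt+/+ Hdac2 KO mice. That mouse is one of those recorded with 1 floxed allele, which are also the only series A mice of their group. The fitted difference of Htr7 was 0.18 ± 0.12 in contrast 1 (edgeR adjusted p = 0.315) and 0.17 ± 0.10 in contrast 2 (edgeR adjusted p = 0.304). Without surrogate variables the contrast 1 difference of Htr7 was 0.55 (edgeR adjusted p = 0.00105), and without both mice with 1 floxed allele it was 0.56 (edgeR adjusted p = 0.0047). Of 17 alternatives, 7 called it. Htr6, a receptor largely confined to the brain, varied least of all, 1.78 times from the lowest (4.80 CPM) to the highest (8.54 CPM) library, and its fitted differences were 0.06 ± 0.14 and 0.16 ± 0.12 in contrasts 1 and 2 and 0.01 ± 0.10 in contrast 4 (edgeR adjusted p = 0.829, 0.425 and 0.990).

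Htr5b was at trace level, with 1 to 82 counts per library. It passed the filter on low counts in contrast 1 only because each of the 9 Htt+/+ Hdac2 KO libraries held at least 6 counts (9 to 22), while the 8 Htt+/+ Hdac2 WT libraries held 2 to 42. Mean levels were 0.261 ± 0.088 and 0.208 ± 0.23 CPM. Its fitted difference of 1.39 ± 0.50 was called at the threshold (edgeR adjusted p = 0.04995), although the means differ by a ratio of 1.25 only. Without surrogate variables the Htr5b value was 0.30 (edgeR adjusted p = 0.746), and 14 of 17 alternatives and 10 of 17 left-out libraries ended the call.

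**Figure D3:**
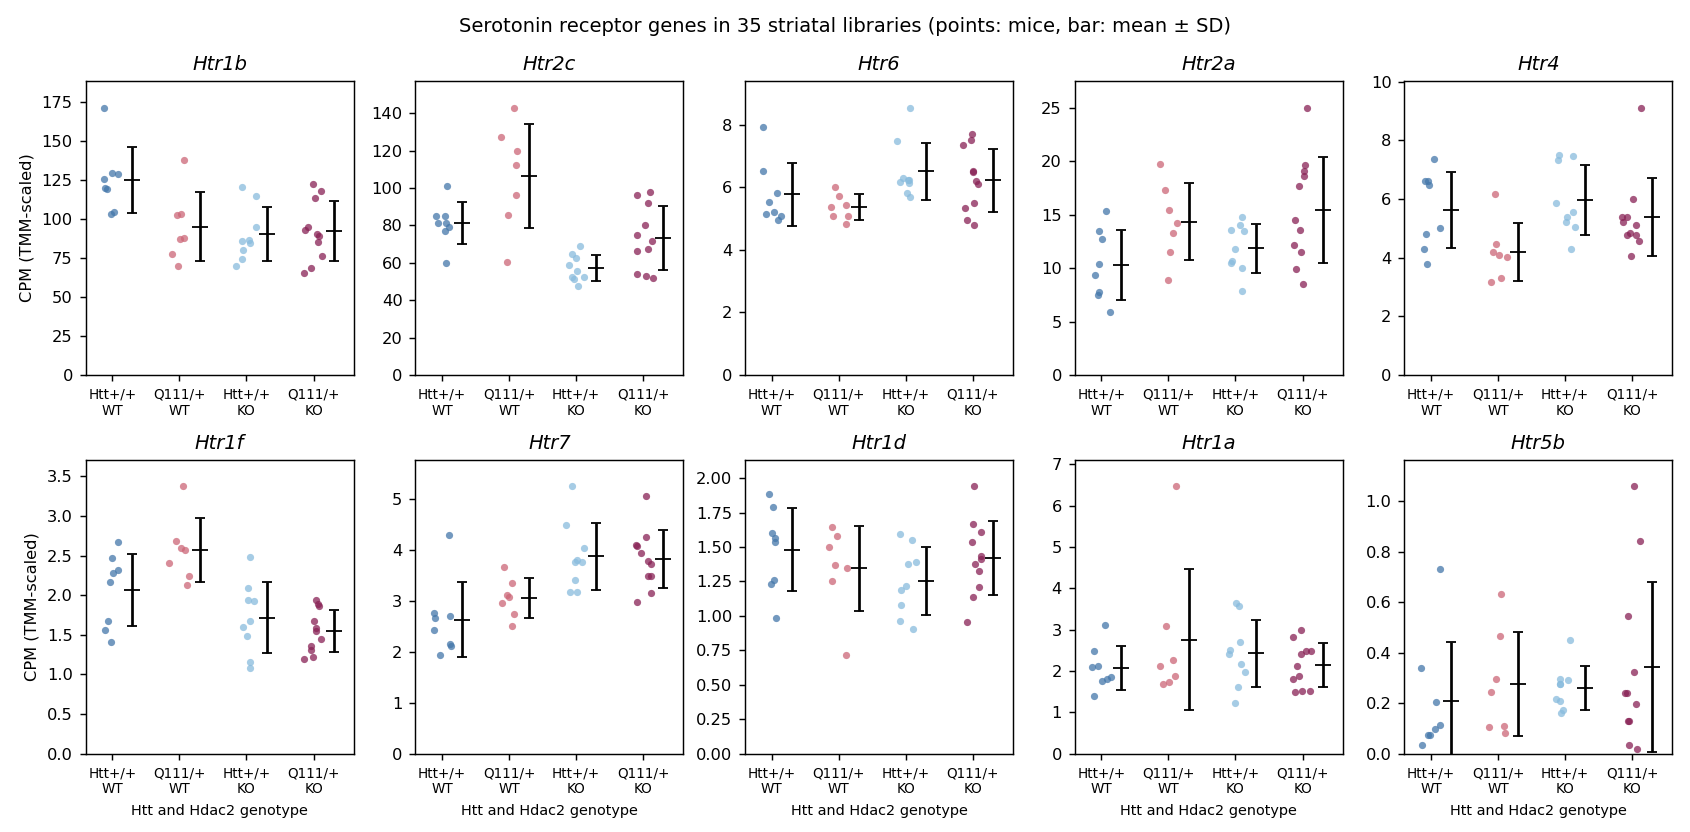
TMM-scaled CPM of each receptor gene (y axis, from 0) in the 35 mice, by Htt and Hdac2 genotype, with the mean ± SD beside each group's points. Htr2c and Htr1f are lower in the KO groups, with no overlap between the HttQ111/+ groups for Htr1f, and Htr2a overlaps between all groups.

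Counted over the 9 genes other than Htr2a, 3 were called in contrast 1, against 17.8% of all 17126 genes tested: Htr1b and Htr2c lower (all genes lower, 8.79%) and Htr5b higher (all genes higher, 9.06%). Htr5b passed the filter on low counts only through the group where it is high, and 2 of the 8 others were called without it. In contrast 2, 3 of the 8 tested were called, against 16.5% of 17169 genes: Htr1f and Htr2c lower (all genes, 8.86%) and Htr4 higher (all genes, 7.68%). The median fitted difference over these genes was -0.11 in contrast 1 and -0.10 in contrast 2, against 0.00 over all genes in both. In contrast 5, 3 of 8 were called, all lower, against 21.2% of 17088 genes called. In contrast 4, 0 of 9 were called by edgeR against 0.00584% of genes, and DESeq2 and limma voom also called 0. Of these 9 genes, 2 had an unadjusted edgeR p under 0.05, against 1287 of all 17110 genes tested. In the interaction 0 of 9 were called by edgeR, against 1 of 17346 genes (0.00577%). Of the 9, only Htr5b had an unadjusted edgeR p under 0.05, against 976 of all 17346 genes, and DESeq2 and limma voom again called 0. With so few members, these shares do not set the family apart from the background.

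**Figure D4:**
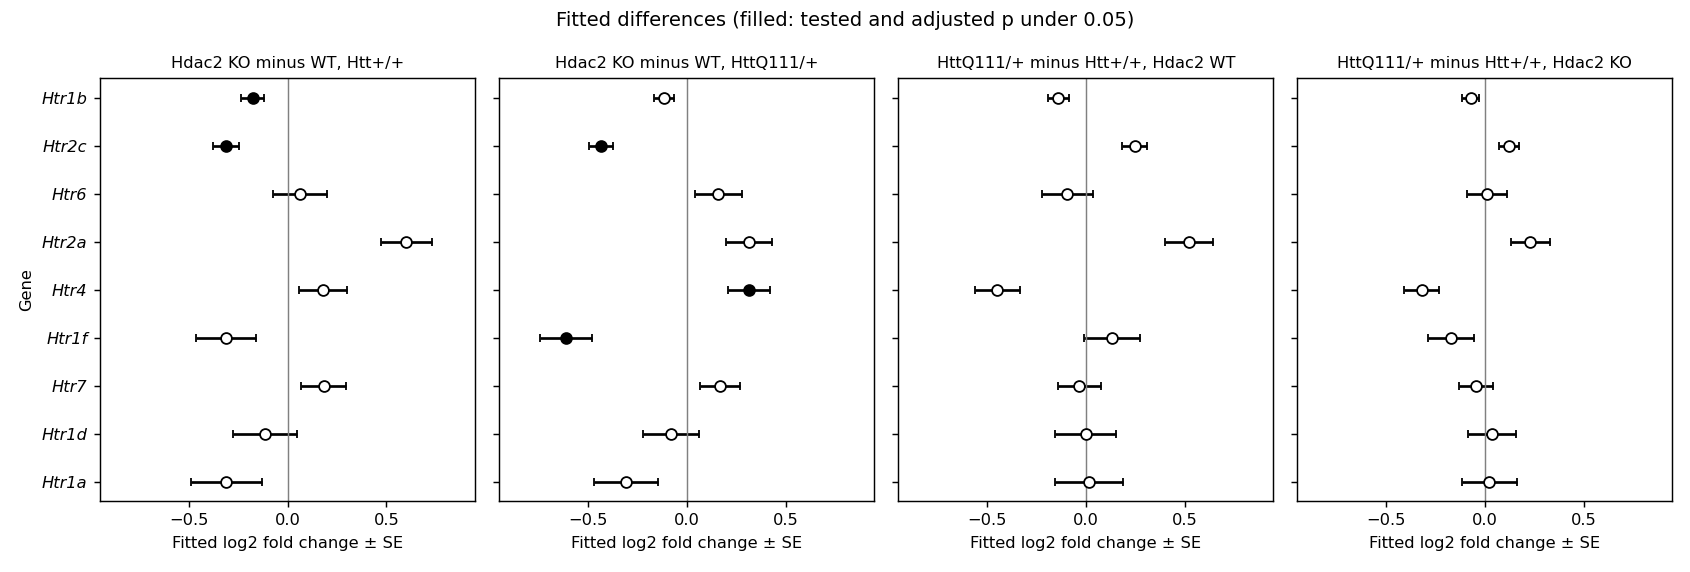
Fitted log2 fold change ± SE of 9 receptor genes (Htr5b left out) in contrasts 1 to 4, with filled symbols where a test was made and the edgeR adjusted p was under 0.05. Htr2c is filled in both Hdac2 comparisons, Htr1b and the pair Htr1f and Htr4 in one each, and no symbol is filled in either HttQ111 comparison.

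The members varied partly together. With group means removed, over 35 libraries, Pearson's r of log2 CPM was 0.59 between Htr1b and Htr4 and 0.58 between Htr2a and Htr2c, and at the other end -0.40 between Htr2a and Htr1d. These values describe libraries that share extraction days, series and dissection, and carry no test. Among 13699 genes with a mean of at least 2 CPM, those most like Htr2a were Heca (r = 0.80), Cggbp1 (0.76), Prickle2 (0.76), Smarcad1 (0.75) and 2810474O19Rik (0.75). Those most like Htr2c were Rab9b (0.91), Zcchc18 (0.90), Gpr149 (0.89), Gprasp1 (0.87) and Marcks (0.87), and those most like Htr1b were Ranbp2 (0.90), Baz1a (0.86), Peli1 (0.86), Ccdc6 (0.86) and Pdp1 (0.86). The nearest gene to Htr1a was Kcnc4 (0.86), to Htr1f Jup (0.76), to Htr7 Itih3 (0.75), to Htr4 Spty2d1 (0.70), to Htr6 Abcc10 (0.70) and to Htr1d Cep57l1 (0.66).

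The other serotonin genes are given beside the shares of all genes called, 17.8% in contrast 1, 16.5% in contrast 2 and 0.00584% in contrast 4, and no count among so few genes is read as particular to them. Htr5a (Gi/o-coupled) was at 12.4 CPM on average and Htr3a, an ion channel of interneurons, at 1.499, whereas Htr2b and Htr3b had at most 10 and 7 counts in a library. Htr5a rose by 0.30 ± 0.10 (SE) in contrast 1 (edgeR adjusted p = 0.0284). Of the 6 synthesis and cofactor genes tested, none was called in contrasts 1, 2 or 4. Of the transport genes tested, only Slc22a3, a low-affinity organic cation transporter, was called: it rose by 0.34 ± 0.07 in contrast 2 (edgeR adjusted p = 0.00104). Maob, a monoamine oxidase, rose by 0.20 ± 0.05 in contrast 1 and 0.26 ± 0.04 in contrast 2 (edgeR adjusted p = 0.00499 and 5.55e-05), as 1 of the 3 breakdown genes tested.

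Of 33 genes for partners and effectors of these receptors, 15 were called in contrast 1 (8 higher, 7 lower; all genes, 17.8%), 12 in contrast 2 (5 higher, 7 lower; all genes, 16.5%) and 0 in contrast 4 (all genes, 0.00584%), with median differences of -0.01, 0.00 and -0.02. Kcnj3, a subunit of the potassium channel opened by Gi/o-coupled receptors, rose by 0.65 ± 0.06 in contrast 1 and 0.53 ± 0.05 in contrast 2 (edgeR adjusted p = 1.27e-09 and 5.30e-09). Gng7, a G protein gamma subunit of MSNs, rose by 0.24 ± 0.04 in contrast 1 and 0.20 ± 0.03 in contrast 2 (edgeR adjusted p = 2.60e-05 and 7.87e-05). Itpr1, the inositol trisphosphate receptor downstream of phospholipase C, fell by 0.30 ± 0.05 in contrast 1 (edgeR adjusted p = 3.35e-05). Adarb1, an RNA-editing enzyme that acts on Htr2c transcripts, fell by 0.19 ± 0.03 in contrast 1 and 0.23 ± 0.03 in contrast 2 (edgeR adjusted p = 7.58e-05 and 1.51e-06). Ppp1r1b rose by 0.31 ± 0.05 in contrast 2 (edgeR adjusted p = 3.48e-05). D9-Cre holds a fragment of that gene, so transcripts of the transgene and of Ppp1r1b may be counted together, which was not tested. In contrast 4 none of the 33 was called by edgeR, and Ppp1r1b came nearest at -0.20 ± 0.04 (adjusted p = 0.0964).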

How the data were processed

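RNA from the striatum of 35 mice was sequenced by the authors as stranded, paired-end mRNA libraries, aligned to GRCm38 with GSNAP and counted over whole Ensembl genes from unique alignments with bedtools. The deposited values are raw counts per gene, with no normalization. Groups, sex, age and extraction dates came from the labels.

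Left out were 92 spike-ins, 2 rRNA genes of the mitochondrion and 6152 genes spanning no more than 250 nt, which kept 32863 genes. For a gene to be tested, all libraries of 1 of the groups compared had to hold 6 or more counts. Counts were TMM-scaled and fitted for 4 groups plus 9 surrogate variables from sva 3.50.0 with the quasi-likelihood F test of edgeR 4.0.16 in its older form (R 4.3.3), with Benjamini-Hochberg adjustment over all genes tested. Standard errors came from the same fit. limma 3.58.1 and DESeq2 1.42.0 served as alternatives, together with other covariates, filters and subsets of libraries. CPM are TMM-scaled, and log2 CPM used a prior count of 2. Permutation tests used scipy 1.17.1, exact for 1 value and with 100000 resamples for correlations. In simulated counts for contrast 4 over 17110 genes, 86 of 100 genes changed 1.5-fold and 94 of 100 changed 2-fold were called. The simulation held 1 hidden factor drawn without regard to group, while the fit of the real libraries took 9 surrogate variables. These shares may therefore be higher than in the real contrast. Smaller changes, such as the fitted 1.17-fold of Htr2a and 1.09-fold of Htr2c in contrast 4, were not simulated.

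The members and gene lists were chosen with earlier results of these data known. All members are named in every comparison. Of the other lists, genes called in contrast 1, 2 or 4 are named, at most 4 per list and contrast. Htr2a has p-values only in contrast 4, which may not be independent of its choice, and in its relation to cortical markers. Mice are the replicates.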

Additional observations from a re-analysis of the deposited data

Results flagged for a closer look

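Dixon's test was applied to the highest and lowest library of the 3 groups of 7 to 9 mice for each of the 10 genes, 30 sets of values, of which chance alone flags about 1 in 20. It marked 6. Htr1a was at 6.47 CPM in HttQ111/+ Hdac2 WT replicate 7, against 3.09 for the next library, and Htr1d in the same library was the lowest of its group at 0.719, against 1.26 for the next. That library had the highest cortical marker level, and the part of cortical RNA in these values was not tested. Htr1b was at 171.1 CPM in Htt+/+ Hdac2 WT replicate 1, against 129.3 for the next, and Htr7 at 4.29 in replicate 2 of that group, against 2.76. These are the mice recorded with 1 floxed allele. They are also the only series A mice of that group, so allele number and ID series cannot be told apart in it. Htr5b, at trace level, was at 0.732 CPM in Htt+/+ Hdac2 WT replicate 4, against 0.338, and at 0.451 in Htt+/+ Hdac2 KO replicate 9, against 0.297.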

How the results depend on the processing

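Of 17 alternatives, 14 left the number of the 9 other members called in contrast 1 within 1.5 times of 3. It was 1 with extraction day as a term, 1 without the 2 libraries richest in cortical markers (chosen after seeing the data) and 0 with the replicate block, which thus also ended the contrast 1 calls of Htr1b and Htr2c. In contrast 2 the number was 0 with extraction day and otherwise 2 to 4, and in contrast 5 it was 1 with extraction day and 1 with the replicate block. Left-out libraries (added after seeing the data for contrasts 1 and 2) gave 1 to 3 in contrast 1, 2 to 3 in contrast 2 and 0 in contrast 4. In contrast 4 and the interaction the number was 0 in every alternative run. Htr2a in contrast 4 ran from 0.18 to 0.28 with 1 library left out (adjusted p 0.369 to 0.809). The replicate numbers do not pair the mice: over 45 same-number pairs the median correlation of deviations was 0.04, with 15 over 0.1, against -0.01 for other pairs.

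By Pearson's r, the relation of Htr2c to the choroid plexus markers passed the threshold with extraction-day means removed (r = 0.41) and without the 2 farthest libraries (r = 0.44), unlike in the main relation. By Spearman's rho the main relation passed (adjusted permutation p = 0.0498). It did not pass with extraction-day means removed (0.0746), without the 2 farthest libraries (0.0539) or with ID series means removed (0.150). That of Htr2a to the cortical markers changed sign, to 0.0432, 0.0909 and 0.0610, with extraction-day means, ID series means (added later) or the 2 farthest libraries taken out.

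No called difference changed sign. Uncalled ones did, and the cause was not tested. Htr1a in contrast 1 was 0.22 without surrogate variables, 0.19 with sex, 0.0625 with ID series, 0.0508 with both, 0.13 with only the 2 groups compared and 0.26 without the mice with 1 floxed allele. Htr1a in contrast 4 was -0.18, -0.13, -0.0814, -0.0527 and -0.0125 in the first 5 of these, and -0.19 with extraction day. Htr1b was 0.14 with extraction day in contrast 2, and 0.0365 and 0.0326 without surrogate variables and with sex in contrast 4. Htr1d in contrast 2 was 0.0732, 0.0664, 0.0696, 0.0601 and 0.0088 in those first 5, and in contrast 4 it was -0.0493 with the replicate block. Htr5b in contrast 4 was 0.42 without surrogate variables, 0.43 with sex and 0.16 with extraction day. Htr6 was -0.10 in contrast 1 with the replicate block and -0.0185 in contrast 2 in males. Htr6 in contrast 4 was -0.0630 without surrogate variables, -0.0672 with sex, -0.0474 with ID series, -0.0483 with both, -0.16 in males, -0.0018 without the mice with 1 floxed allele and -0.0119 without the choroid-rich libraries. Htr7 in contrast 4 was 0.0724 with the replicate block, 0.01 in males and 0.0043 without the cortex-rich libraries. With 1 library left out, Htr1a in contrast 4 ran from -0.18 to 0.0974, Htr1d in contrast 4 from -0.0033 to 0.0874, Htr6 in contrast 1 from -0.0626 to 0.17 and Htr6 in contrast 4 from -0.0280 to 0.0811. At 1 to 82 counts, no difference in Htr5b could be judged.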

Other observations

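The HttQ111/+ Hdac2 KO mice of series A and Z together carry 110 to 118 repeats. In series Z, Htr2a and Htr2c were at 10.2 ± 1.8 and 52.8 ± 1.1 CPM (SD, n = 3), against 10.9 ± 2.1 and 51.9 ± 2.9 (n = 5) without the HttQ111 allele. In series V, with 131 to 144 repeats, they were at 16.7 ± 5.4 and 87.6 ± 11.3 (n = 5), against 12.9 ± 2.6 and 64.2 ± 5.3 (n = 3). In series A, Htr2a was at 18.7 ± 0.97 CPM (n = 3) and Htr2c at 69.4 ± 4.6, against 13.5 and 62.6 in 1 mouse. The difference between series was not tested.

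Tph2, the enzyme that makes serotonin in neurons, had 31 to 138 counts per library while Slc6a4 had at most 6.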
